A study of Homo sapiens with 16 samples.

Results

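The comparison described here is the difference between 2 sublines of VCaP cells in how far enzalutamide turned back the response to dihydrotestosterone (DHT). For each gene, the log2 change from DHT alone to DHT plus enzalutamide, called the drug block below, was taken in the Ver subline, and the same change in the Vc subline was subtracted. All genes entered: the count files list 58302, of which 22553 passed the filter on low counts and were tested. A negative difference means that adding enzalutamide to DHT moved the gene further down, or less far up, in Ver than in Vc. A positive one means the opposite.

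The cells are VCaP, a prostate cancer line of human origin in which a gene fusion places ERG behind the TMPRSS2 promoter. Ver cells had been kept for 4 months in 1 µM enzalutamide, and Vc cells for 4 months in ethanol, and each is 1 line. Before treatment, both went without steroid hormones for 48 h or more (charcoal-stripped serum, medium free of phenol red), and the compounds were then given for 24 h. The contrast uses 4 groups of 2 libraries: Ver with 1 nM DHT plus 1 µM enzalutamide, Ver with 1 nM DHT, Vc with 1 nM DHT plus 1 µM enzalutamide, and Vc with 1 nM DHT. Both lines also had 2 libraries with 1 µM enzalutamide alone and 2 with control treatment, which give the starting levels used below. The labels do not say whether the 2 libraries of a group came from separate cultures, so the p-values measure the spread between these libraries, which may be technical. The labels place every Ver library in 1 sequencing lane and every Vc library in another. Lane and line therefore cannot be told apart in levels. Each drug block lies within 1 lane, but the blocks of the lines lie in different lanes. An effect of lane on the size of the block therefore cannot be told apart from one of line.

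DHT is the most potent natural androgen. It binds a nuclear hormone receptor in prostate epithelial cells, and the bound receptor enters the nucleus and attaches to DNA elements built from the hexamer AGAACA and its reverse complement. Genes such as KLK3, TMPRSS2 and FKBP5 are raised in this way, while a second set that includes MYC is lowered. Enzalutamide competes with DHT for the hormone pocket of the receptor. With both compounds present, the levels of many DHT-responsive genes lie between those with DHT alone and those with no hormone. Some genes described below lie outside that range. In VCaP cells ERG is itself an androgen-driven gene through the fusion.

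3 promoters are printed, one for each kind of result that follows. They are FKBP5, which fell further in Ver, KLK3, whose difference was not called, and PLA2G2A, which rose further in Ver. They were chosen after their values were seen. Each is the RefSeq sequence of build GRCh38.p14 from 250 bases before a transcription start to 50 bases after its first base, 5′ to 3′ on the gene's own strand, with AGAACA in capitals. FKBP5 lies on the minus strand at chr6:35728534-35728833 and is one of 2 promoters listed for the gene. KLK3 lies on the plus strand at chr19:50854665-50854964. PLA2G2A lies on the minus strand at chr1:19979610-19979909 and is one of 3 listed.
FKBP5: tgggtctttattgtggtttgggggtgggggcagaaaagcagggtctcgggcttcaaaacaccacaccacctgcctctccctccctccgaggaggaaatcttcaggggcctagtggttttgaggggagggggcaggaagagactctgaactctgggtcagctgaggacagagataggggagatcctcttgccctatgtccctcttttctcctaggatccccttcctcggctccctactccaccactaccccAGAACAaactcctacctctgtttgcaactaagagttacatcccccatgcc
KLK3: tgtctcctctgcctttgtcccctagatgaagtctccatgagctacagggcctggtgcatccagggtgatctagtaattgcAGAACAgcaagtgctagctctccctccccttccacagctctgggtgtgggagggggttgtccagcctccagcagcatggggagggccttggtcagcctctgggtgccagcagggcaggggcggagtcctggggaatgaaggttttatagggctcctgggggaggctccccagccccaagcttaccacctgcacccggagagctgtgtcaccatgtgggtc
PLA2G2A: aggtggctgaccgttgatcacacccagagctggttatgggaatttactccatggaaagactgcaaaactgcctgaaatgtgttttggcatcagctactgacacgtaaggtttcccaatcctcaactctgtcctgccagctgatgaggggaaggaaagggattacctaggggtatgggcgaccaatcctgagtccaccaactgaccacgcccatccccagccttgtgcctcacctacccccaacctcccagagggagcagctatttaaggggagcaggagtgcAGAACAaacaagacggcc
The capitals begin at base 251 of the FKBP5 window, at base 81 of the KLK3 window and at base 283 of the PLA2G2A window. AGAACA or its reverse complement occurred in 5192 of 35116 RefSeq promoter windows (14.8%), and AGAACA followed by 3 free bases and TGTTCT in 1. Of tested genes with a window in the table, 1598 of 11987 (13.3%) held the hexamer. The share was 17 of 112 (15.2%) among genes called lower in the difference and 11 of 95 (11.6%) among genes called higher. A match is a description of the letters only.

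The 8 libraries of the contrast held 9554571 to 13273523 gene counts. All 11 luminal prostate markers had a mean over 1 CPM (scaled counts relative to library size, by TMM), and summed to 10049 to 10321 CPM with both compounds and 11030 to 11401 CPM with DHT in Ver, against 11838 to 11891 CPM and 12975 to 13157 CPM in Vc. The 4 basal markers summed to at most 4.10 CPM, with KRT5 at 0, KRT14 up to 2.30 CPM and KRT15 up to 3.37 CPM. The 4 endothelial markers summed to at most 3.35 CPM, with KDR at 0 and VWF up to 2.83 CPM. COL1A2, COL3A1 and DCN were at 0, and the 6 immune markers summed to at most 2.09 CPM. The 5 neuroendocrine markers summed to 69.7 to 86.0 CPM with both compounds and 41.5 to 45.6 CPM with DHT in Ver. In Vc they summed to 63.8 to 68.8 CPM and 49.0 to 51.7 CPM. INSM1, one of them, ranged from 15.4 to 64.6 CPM. The 6 fibroblast and stromal markers summed to 18.7 to 26.2 CPM with both compounds and 3.03 to 3.14 CPM with DHT in Ver, against 4.85 to 6.18 CPM and 2.05 to 3.15 CPM in Vc. Most of this was LUM, at up to 23.9 CPM, and its part in the results was not tested. In these bulk libraries, fewer cells of a kind and less RNA per cell cannot be told apart.

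Enzalutamide on top of DHT changed many genes in both lines, and the size of that change differed between the lines for few of them. The drug block itself was called for 6076 genes in Ver (26.9% of those tested; 3098 higher, 13.7%, and 2978 lower, 13.2%) and for 5059 in Vc (22.4%; 2588 higher, 11.5%, and 2471 lower, 11.0%). The difference between the lines was called for 291 genes (1.29%) by edgeR's quasi-likelihood F test at a Benjamini-Hochberg adjusted p under 0.05. Of these, 144 were higher (0.638%) and 147 lower (0.652%), and 2632 genes had an unadjusted p under 0.05. The median difference over all tested genes was -0.00 on the log2 scale, and the median size among called genes was 0.47. At least 2-fold differences were found in 23 genes called higher (0.102%) and 17 called lower (0.0754%). In 290 of the 291 genes the sign held in all 16 ways of taking 1 library per group. The calls rest on the same libraries, so this is a description.

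For most of these genes the drug block was called in the same direction in both lines or was called in Ver only. Among the 147 lower genes, 70 fell in both lines and fell further in Ver, 47 fell in Ver without a call in Vc, and 18 rose in Vc without a call in Ver. A further 6 rose in both and 6 fell in Ver but rose in Vc. Among the 144 higher genes, 59 rose in both lines and rose further in Ver, 52 rose in Ver without a call in Vc, and 24 fell in Vc without a call in Ver. A further 5 rose in Ver but fell in Vc, and 4 fell in both. The lower genes had a median drug block of -0.65 in Ver and -0.18 in Vc, and the higher genes had medians of 0.70 in Ver and 0.08 in Vc, all on the log2 scale. These medians share libraries with the calls and are given as a description.

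**Figure D1:**
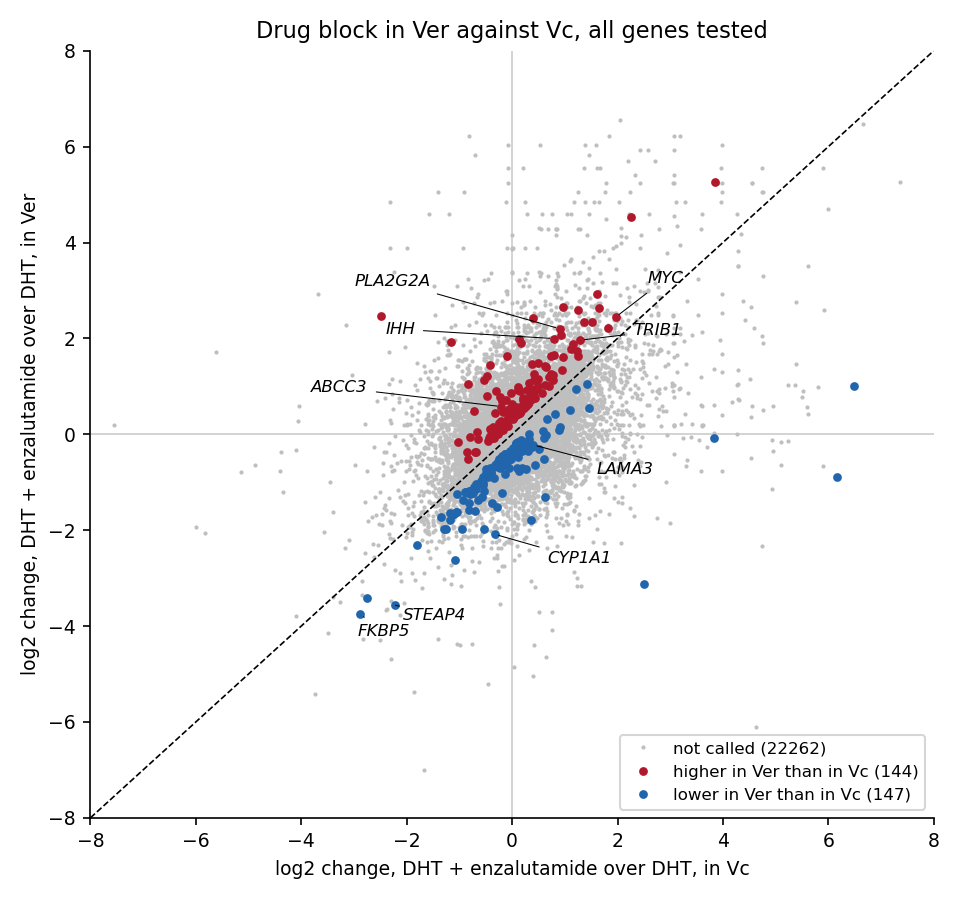
Drug block (log2 change from DHT to DHT plus enzalutamide) in Ver, on the vertical axis, against that in Vc, on the horizontal axis, for all 22553 tested genes. The 144 red points were called higher and the 147 blue points called lower in the difference, and the diagonal marks an equal block in both lines.

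The calls moved with the base composition of the transcripts. Over 12156 genes with a mean of at least 5 CPM, split into 5 groups of nearly equal size by the GC content of their longest annotated transcript, the median difference was -0.14 in the lowest group (26.5 to 40.7% GC), then -0.08, -0.01 and 0.05, and 0.15 in the highest (57.7 to 83.9% GC). The lowest group held 72 of the genes called lower and 3 called higher. The highest held 72 called higher and 0 called lower. Trends on GC content were also present between libraries under the same treatment, and their size and direction varied. The median log2 level of library 1 minus library 2 of Ver with DHT was -0.09 in the lowest group and 0.07 in the highest. In the same order it was -0.03 and 0.02 in Ver with both compounds and 0.02 and -0.07 in Vc with both compounds. In Vc with DHT it was -0.01 in each. With the GC trend of each library entered as an offset, an alternative chosen after seeing the data, 166 genes were called, 84 higher and 82 lower, and 127 of them were among the 291. In that fit the lowest group held 21 lower and 13 higher calls and the highest held 11 lower and 8 higher.

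**Figure D2:**
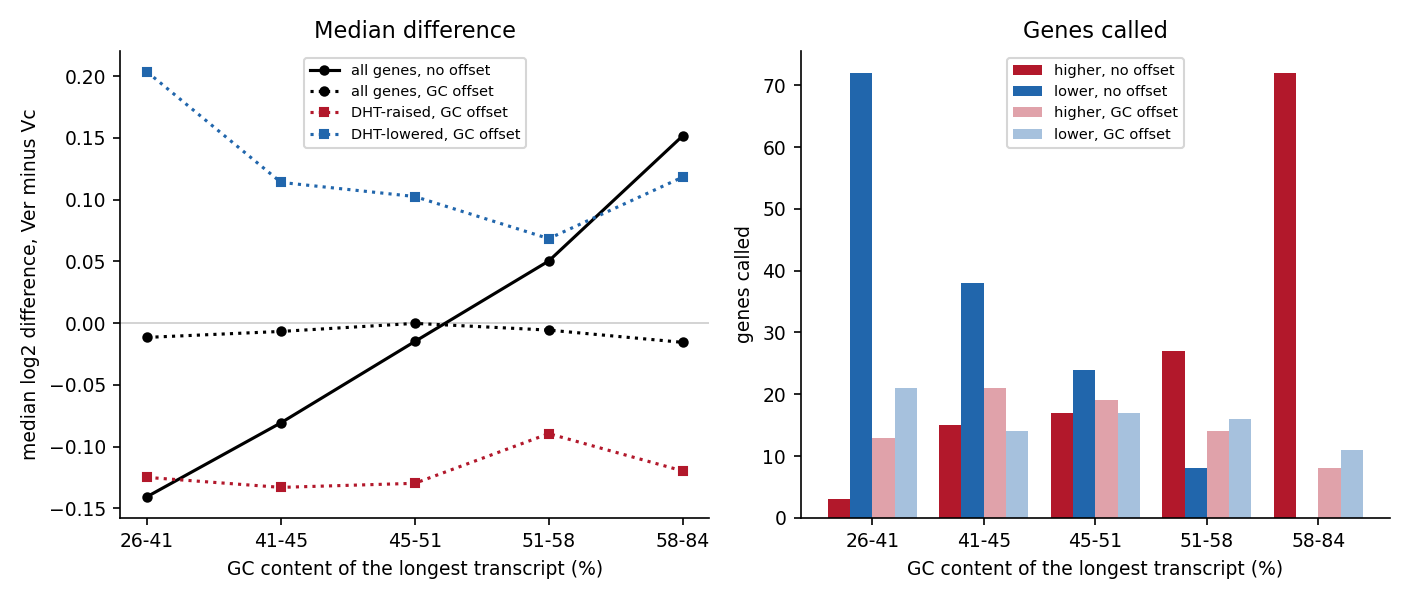
Left, the median log2 difference in drug block in 5 groups of genes by transcript GC content, without and with the GC offset. Right, the number of genes called higher and lower in each group, without and with the offset, where the 72 lower calls of the lowest group became 21 and the 72 higher calls of the highest became 8.

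The count also depended on single libraries. It was 93 without library 1 of Ver with both compounds, 142 without library 2 of Ver with DHT, 128 without library 1 of Vc with both compounds, 150 without library 1 of Vc with DHT and 169 without library 2 of Vc with DHT. It stayed between 229 and 357 without each of the other libraries. Without any one of the 8, 54 genes were called every time (24 higher, 30 lower), and 44 of these (16 higher, 28 lower) were also called with the GC offset. Of the 28 lower genes, 18 fell in both lines and 22 had been raised by DHT in both. Of the 16 higher genes, 11 rose in both lines and 15 had been lowered by DHT in both. The DHT responses share the DHT libraries with the difference, so these directions are a description.

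Androgen-induced genes were the list with the most members called lower, and none was called higher. The list holds well-known androgen targets of the prostate, and 68 of its 69 members were tested. Of these, 16 were called lower (23.5%) and 0 higher, beside 0.652% and 0.638% of all tested genes. The list had a median difference of -0.18 and negative values in 52. The drug block itself was called lower for 55 members in Ver and 51 in Vc, beside 13.2% and 11.0% of all tested genes. The list medians of the block were -0.84 in Ver and -0.60 in Vc. The GC offset left 18 called lower and 0 higher, with a median of -0.15. The lower count ran between 10, without library 1 of Ver with both compounds, and 20 when single libraries were left out. The members called lower were ZBTB16, STEAP4, ZBTB10, FKBP5, TPD52, BMPR1B, LIFR, TMPRSS2, HPGD, UAP1, ELL2, NCAPD3, ABCC4, EAF2, SLC38A4 and NDRG1. Outside the naming rule, LIFR, HPGD and ELL2 were named after their values were seen. Single libraries ended 5 of these calls and that of ABCC4. HPGD, a prostaglandin dehydrogenase gene, and ELL2, an elongation factor gene, were lost without library 1 of Ver with both compounds (adjusted p = 0.0505 and 0.0960). EAF2, a partner of ELL2, was lost without library 1 of Ver with both compounds or library 1 of Vc with both compounds (0.378 and 0.111). The amino acid transporter SLC38A4 kept its call only without library 2 of Ver with both compounds, with adjusted p of 0.0561 to 0.334 without the others, and lost it with the GC offset (0.0760). NDRG1, a stress-response gene, kept its call only without library 2 of Ver with both compounds or library 1 of Vc with both compounds, with 0.0932 to 0.503 without the others, and lost it with no filter on low counts (0.0678).

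FKBP5 (ENSG00000096060, chr6:35573585-35728583, GRCh38) encodes a co-chaperone of steroid receptors. With both compounds it had 114 and 149 CPM in Ver libraries, against 228 and 253 CPM in Vc libraries. With DHT alone it had 1711 and 1845 CPM in Ver and 1761 and 1784 CPM in Vc. The DHT levels of the lines overlapped, and with both compounds each Ver library was below each Vc library. The block was -3.75 in Ver and -2.88 in Vc, a difference of -0.87 ± 0.098 (SE; adjusted p = 2.07e-06). The call was lost when only the groups of the contrast were fitted (adjusted p = 0.176). In control libraries FKBP5 had 69.0 and 74.1 CPM in Ver and 64.7 and 63.1 CPM in Vc.

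STEAP4 (ENSG00000127954, chr7:88270892-88306891), a metalloreductase, had the largest difference among the list members whose call held without each of the 8 libraries in turn. It had 5.34 and 8.21 CPM with both compounds and 76.5 and 84.2 CPM with DHT in Ver, against 18.7 and 17.8 CPM and 85.2 and 84.0 CPM in Vc. The DHT levels overlapped, while with both compounds Ver was below Vc in every library. The difference was -1.35 ± 0.200 (adjusted p = 5.52e-07), with blocks of -3.57 in Ver and -2.21 in Vc. ZBTB16, a transcription factor induced by androgens and glucocorticoids, had 131 and 134 CPM with both compounds and 404 and 409 CPM with DHT in Ver, against 182 and 194 CPM and 388 and 399 CPM in Vc. Its difference was -0.55 ± 0.0780 (adjusted p = 2.56e-07), and the Ver libraries with both compounds were below the Ver control libraries (139.9 and 148 CPM).

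TMPRSS2 and ERG, the 2 ends of the fusion, moved alike. TMPRSS2 (ENSG00000184012, chr21:41464551-41531116), a serine protease gene, had 206 and 242 CPM with both compounds and 702 and 686 CPM with DHT in Ver, against 346 and 358 CPM and 794 and 803 CPM in Vc. ERG (ENSG00000157554, chr21:38380027-38661780), an ETS transcription factor, had 343 and 403 CPM with both compounds and 814 and 826 CPM with DHT in Ver, against 556 and 556 CPM and 923 and 908 CPM in Vc. For both genes every Ver library was below every Vc library under the same treatment. The differences were -0.45 ± 0.0755 for TMPRSS2 (adjusted p = 2.10e-05) and -0.42 ± 0.0714 for ERG (adjusted p = 3.61e-05). The blocks of TMPRSS2 were -1.63 in Ver and -1.18 in Vc, and those of ERG -1.14 in Ver and -0.72 in Vc.

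**Figure D3:**
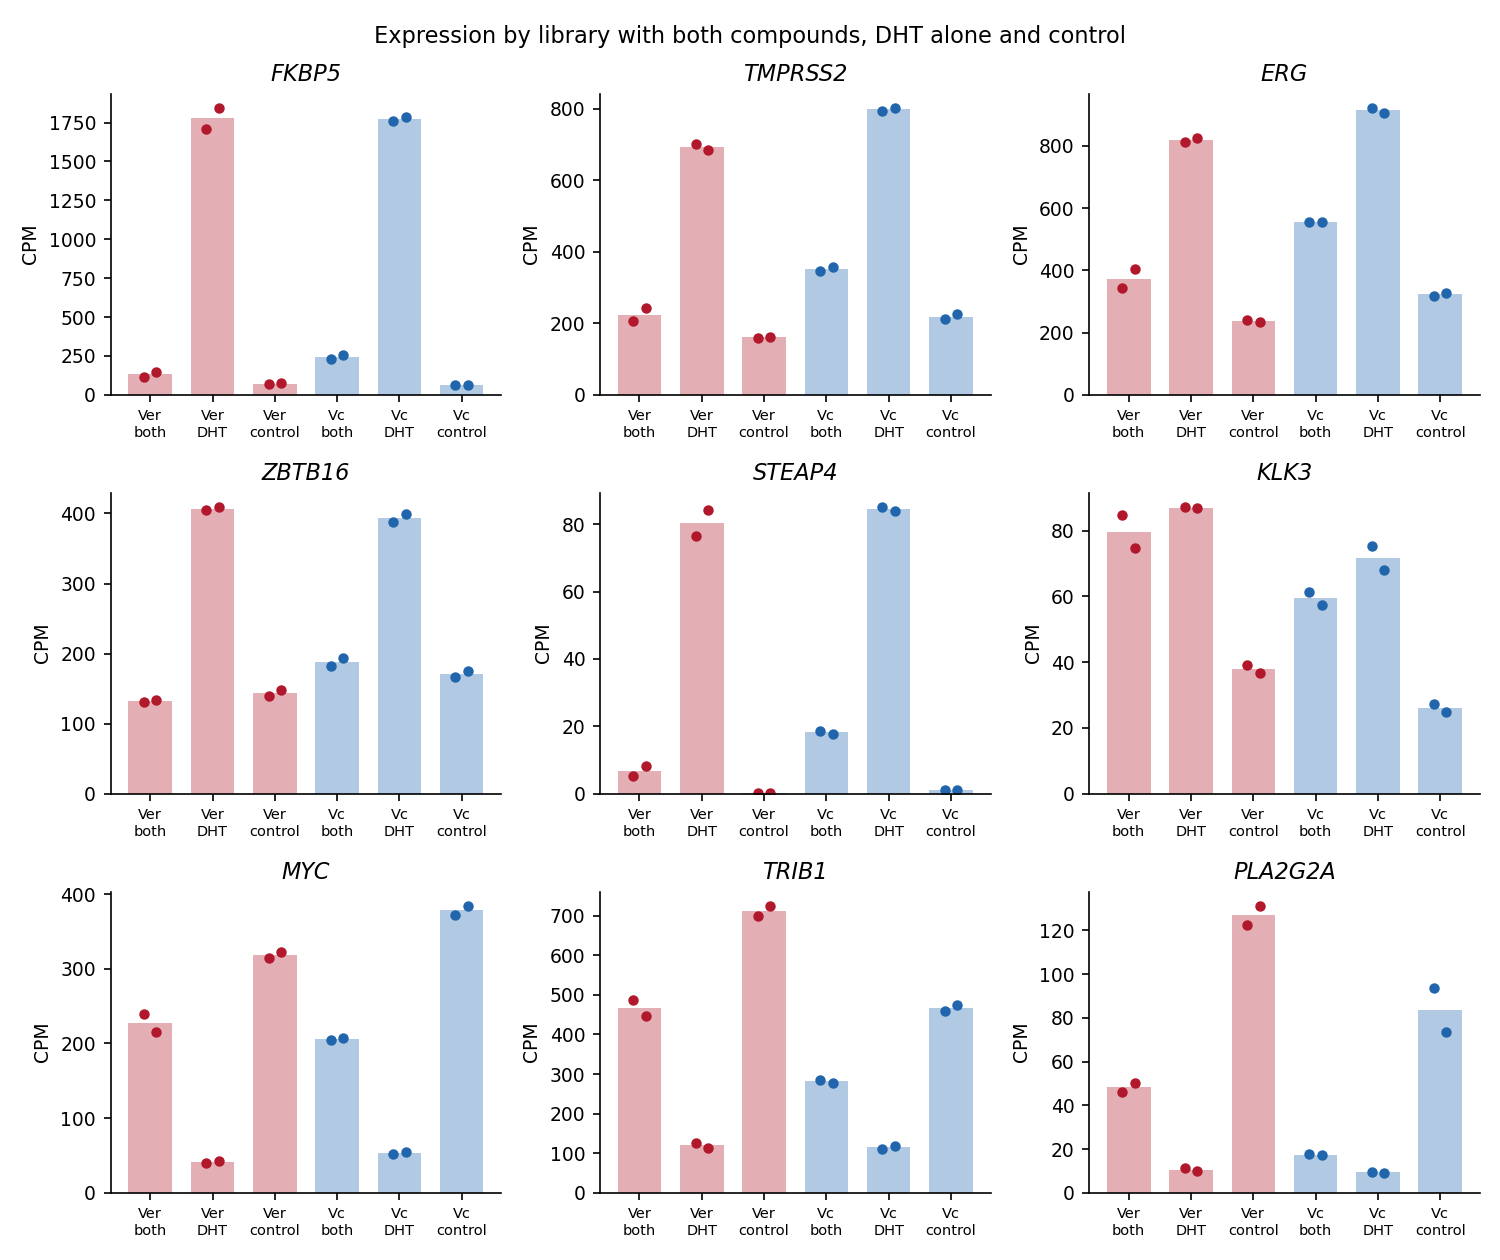
Level (CPM, linear axis from 0) of 9 genes in the libraries of both lines with both compounds, DHT and control. Bars are means and dots the 2 libraries of each group. In FKBP5, TMPRSS2, ERG, ZBTB16 and STEAP4 the Ver libraries with both compounds sit below those of Vc, in MYC, TRIB1 and PLA2G2A above, and in KLK3 above as they do with DHT.

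Other members of the list also fell further in Ver. BMPR1B, a receptor for bone morphogenetic proteins, had 60.1 and 77.9 CPM with both compounds in Ver against 119 and 115 CPM in Vc, with a difference of -0.64 ± 0.103 (adjusted p = 7.70e-06). ZBTB10, a zinc finger repressor, had 334 and 361 CPM in Ver against 436 and 460 CPM in Vc with both compounds, although its DHT levels were 521 and 584 CPM in Ver and 493 and 524 CPM in Vc. Its difference was -0.49 ± 0.0736 (adjusted p = 1.87e-06). TPD52, a gene of vesicle traffic, had 245 and 242 CPM with both compounds in Ver against 398 and 384 CPM in Vc, a difference of -0.47 ± 0.0731 (adjusted p = 2.62e-06). LIFR, the leukaemia inhibitory factor receptor, had 103 and 92.1 CPM with both compounds in Ver against 119 and 120.0 CPM in Vc, and its DHT levels were 448 and 519.7 CPM in Ver and 402 and 431 CPM in Vc, so that Ver was the higher line with DHT and the lower one with both compounds. Its difference was -0.51 ± 0.0837 (adjusted p = 1.11e-05).

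Members of the list that act in sugar nucleotide and transport pathways also fell further. UAP1, which makes UDP-N-acetylglucosamine, had 128 and 146 CPM with both compounds in Ver against 208 and 211 CPM in Vc, and 209 and 233 CPM with DHT in Ver against 238 and 256 CPM in Vc. Its difference was -0.46 ± 0.0860 (adjusted p = 2.34e-04). The efflux transporter ABCC4 differed by -0.37 ± 0.0889 (adjusted p = 0.00878). That call was lost without library 1 of Ver with both compounds (0.122), library 2 of Ver with DHT (0.184), libraries 1 and 2 of Vc with DHT (0.0699 and 0.0531) and library 2 of Vc with both compounds (0.0978). NCAPD3, a condensin subunit, differed by -0.66 ± 0.113 (adjusted p = 0.00345), but not when only the groups of the contrast were fitted (0.284) or with the GC offset (0.146).

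The share of the DHT change that was left with both compounds puts these values on 1 scale. It was computed in CPM as the level with both compounds minus control, over the level with DHT minus control, for genes that DHT changed at least 2-fold with a call in both lines. Values by library take 1 library with both compounds and the mean DHT and control levels of its line. They leave out the spread of the DHT and control libraries. In Ver, 6.38% of tested genes were raised and 10.9% lowered by DHT at that size, and in Vc 7.13% were raised and 10.7% lowered. Over 46 androgen-induced genes raised by DHT the median share left was 30.4% in Ver (25.1 and 36.2% by library) and 44.7% in Vc (44.7 and 44.9%). The share was smaller in Ver for 43 of the 46, and both Ver libraries were below both Vc libraries in 32. The exceptions were AZGP1, KLK3 and SLC45A3, the first of them named after its values were seen. Over all 769 genes raised by DHT the median was 42.5% in Ver (39.2 and 45.9% by library) and 51.1% in Vc (50.1 and 51.6%), with a smaller share in Ver for 569 (74.0%). With the GC offset the medians were 31.7% in Ver and 42.3% in Vc for the 46 genes, and 41.2% in Ver and 50.2% in Vc for the 769.

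Single genes spanned a wide range on this scale. FKBP5 kept 3.53% of its DHT rise in Ver and 10.3% in Vc. STEAP4 kept 8.17% in Ver and 20.5% in Vc. TMPRSS2 kept 11.9% in Ver and 23.0% in Vc, and ERG kept 23.4% in Ver and 39.3% in Vc. BMPR1B kept 30.7% in Ver and 59.4% in Vc, and UAP1 45.3% in Ver and 78.4% in Vc. ZBTB10, which DHT raised by less than 2-fold, has no place on this scale. ZBTB16 and LIFR were below their mean control levels in Ver, with shares of -4.35% and -4.06%, against 7.64% and 6.80% in Vc.

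**Figure D4:**
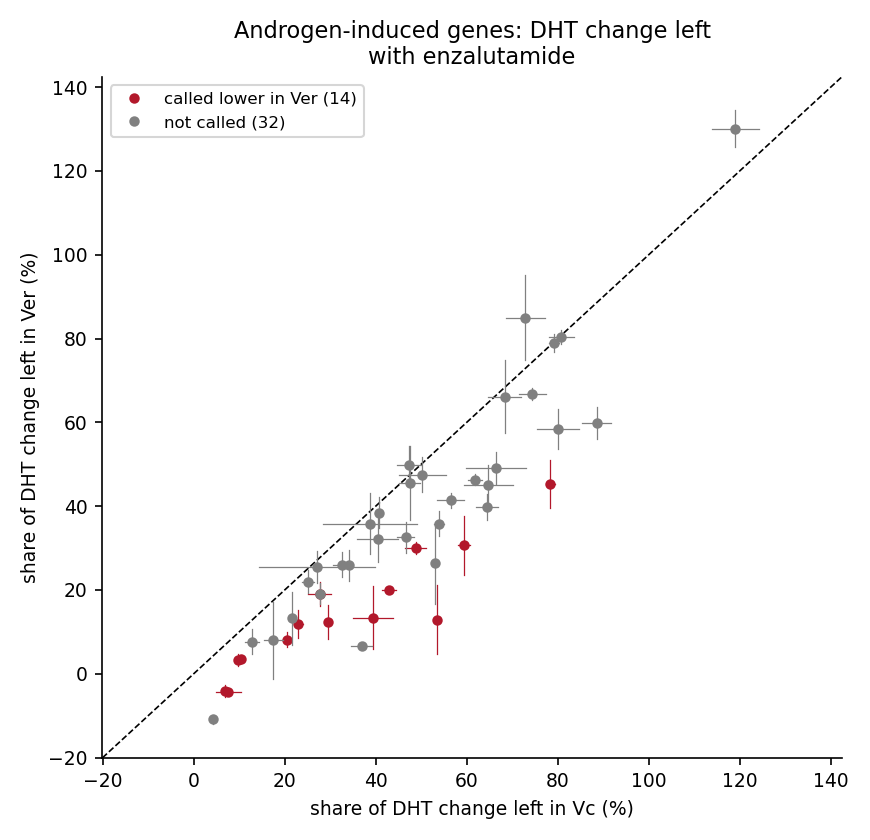
Share of the DHT-induced rise (percent of the change in CPM) left with both compounds in each of 46 androgen-induced genes, Ver beside Vc. Points are means and lines span the 2 libraries with both compounds. In 43 genes the Ver mean lies below the Vc mean, and 14 of the genes were called lower in the difference.

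Several of the best-known androgen targets had no call in the difference in drug block. KLK3 (ENSG00000142515, chr19:50854915-50860764), which encodes prostate-specific antigen, had 84.6 and 74.6 CPM with both compounds and 87.2 and 86.7 CPM with DHT in Ver, against 61.3 and 57.4 CPM and 75.5 and 68.1 CPM in Vc. Its Ver libraries were above its Vc libraries under both treatments, and the difference in block was 0.15 ± 0.122 (adjusted p = 0.698), with 85.0% of the DHT rise left in Ver and 72.9% in Vc. KLK2, a neighbouring kallikrein protease gene, had 4794 and 4892 CPM with both compounds and 5546 and 5262 CPM with DHT in Ver, against 5522 and 5334 CPM and 6196 and 5989 CPM in Vc. Its difference was 0.01 ± 0.0575 (adjusted p = 0.980), with 80.4% left in Ver and 80.8% in Vc. A difference of this size was within the SE. Reads shared between the kallikrein genes cannot be assigned with certainty.

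For 2 further genes of the list, adding enzalutamide to DHT moved the level up in both lines. Over the whole androgen-induced list the drug block was called higher for 6 members in Ver and 7 in Vc. SLC45A3, a prostate sugar transporter also known as prostein, had 1149 and 1195 CPM with both compounds and 1044 and 984 CPM with DHT in Ver, against 1776 and 1891 CPM and 1624 and 1620.4 CPM in Vc. The block was 0.21 in Ver and 0.18 in Vc, and the difference was 0.03 ± 0.0669 (adjusted p = 0.917). TRPM8, a cold-sensing calcium channel, had 71.9 and 70.4 CPM with both compounds and 45.7 and 52.7 CPM with DHT in Ver, against 244 and 254 CPM and 170.0 and 163 CPM in Vc. Its difference was -0.04 ± 0.101 (adjusted p = 0.924), with blocks of 0.53 in Ver and 0.58 in Vc. PMEPA1, an inhibitor of TGF-beta signalling, differed by -0.17 ± 0.0643 (adjusted p = 0.196), and passed with the GC offset at -0.22 (adjusted p = 0.0257).

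Androgen-repressed genes held calls in both directions, 4 higher and 1 lower of 26 tested, beside 0.638% and 0.652% of all tested genes. The median difference of the list was 0.18. Under the GC offset the counts were 4 higher and 0 lower, again with a median of 0.18. The median was 0.05 without library 1 of Vc with DHT, 0.29 without library 1 of Ver with DHT and 0.13 to 0.23 without each of the others. The block was called higher for 17 members in Ver and 15 in Vc, beside 13.7% and 11.5% of all tested genes. Most of the list thus moved up when enzalutamide was added to DHT. The called members were TRIB1, MYC, FOLH1 and WNT2, higher, and ACPP, lower.

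TRIB1, a pseudokinase gene, had 486 and 447 CPM with both compounds and 127 and 113 CPM with DHT in Ver, against 285 and 278 CPM and 111 and 118 CPM in Vc. The DHT levels overlapped, and with both compounds every Ver library was above every Vc library. The difference was 0.67 ± 0.0782 (adjusted p = 3.26e-10), with blocks of 1.96 in Ver and 1.29 in Vc. MYC, a growth-driving transcription factor gene, had 239 and 215 CPM with both compounds and 40.3 and 43.1 CPM with DHT in Ver, against 204 and 208 CPM and 51.3 and 54.2 CPM in Vc. Its Ver libraries were the lower ones with DHT and the higher ones with both compounds, and the difference was 0.48 ± 0.0912 (adjusted p = 2.81e-04). Of the fall that DHT gave, 41.4% was left for TRIB1 in Ver and 52.6% in Vc, and 33.0% for MYC in Ver and 52.9% in Vc.

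The other 3 calls of this list rested on fewer libraries. FOLH1, which encodes prostate-specific membrane antigen, had 191 and 165 CPM with both compounds and 37.5 and 38.7 CPM with DHT in Ver, against 181 and 173 CPM and 46.4 and 54.9 CPM in Vc. Its difference was 0.41 ± 0.0970 (adjusted p = 0.00824), and the call was lost without library 1 of Ver with both compounds (0.227), library 2 of Vc with DHT (0.250) or library 2 of Vc with both compounds (0.0553). WNT2, a secreted WNT ligand, had 37.6 and 43.4 CPM with both compounds and 0.981 and 1.11 CPM with DHT in Ver, against 25.2 and 28.7 CPM and 2.55 and 1.02 CPM in Vc. Its difference was 1.41 ± 0.384 (adjusted p = 0.0232), lost in the fit of the contrast groups (0.0529) and without libraries 1 or 2 of Ver with DHT (0.102 and 0.0972), library 1 of Vc with DHT (0.817) or library 1 of Vc with both compounds (0.0740). ACPP, which encodes prostatic acid phosphatase, rose less in Ver: it had 2371 and 2205 CPM with both compounds and 1175 and 1186 CPM with DHT in Ver, against 927 and 864 CPM and 399 and 371 CPM in Vc. Its difference was -0.26 ± 0.0622 (adjusted p = 0.00811), lost with the GC offset (0.0573) and without library 2 of Ver with DHT (0.0535), library 2 of Ver with both compounds (0.115), library 2 of Vc with DHT (0.175) or library 1 of Vc with both compounds (0.215).

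Over the 11 androgen-repressed genes that DHT lowered at least 2-fold in both lines, the median share left was larger in Ver, at 62.4% (58.9 and 64.9% by library) against 59.1% in Vc (61.1 and 60.5%), although 8 of the 11 had a smaller share in Ver. Over all 798 genes lowered by DHT at that size the median was 54.9% in Ver (50.7 and 58.9% by library) and 62.5% in Vc (63.7 and 63.0%), and it was smaller in Ver for 560 (70.2%). The GC offset gave medians of 57.2% in Ver and 64.3% in Vc. Of the 798 genes, 42 were called higher and 5 lower in the difference. Of the 769 genes raised by DHT, 3 were called higher and 59 lower. Among all tested genes 0.638% were called higher and 0.652% lower. Both sets were chosen by their DHT response, and its DHT libraries enter the drug block with the opposite sign. These counts and the medians that follow are therefore a description. From the lowest to the highest GC group the median difference of DHT-raised genes ran from -0.26 to 0.04, and that of DHT-lowered genes lay between 0.03 and 0.28. With the GC offset these medians lay between -0.13 and -0.09 for DHT-raised genes and between 0.07 and 0.20 for DHT-lowered genes.

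PLA2G2A (ENSG00000188257, chr1:19975431-19980416), a secreted phospholipase of innate defence, had the largest difference of the 16 higher genes called under every left-out library and with the GC offset. It had 46.0 and 50.4 CPM with both compounds and 11.1 and 9.78 CPM with DHT in Ver, against 17.7 and 17.1 CPM and 9.53 and 9.04 CPM in Vc. Ver was above Vc in every library under both treatments, and further above with both compounds. The difference was 1.30 ± 0.178 (adjusted p = 1.27e-07). IHH (chr2:219054420-219060467), the Indian hedgehog ligand, had 18.9 and 20.2 CPM with both compounds and 5.26 and 4.52 CPM with DHT in Ver, against 49.3 and 50.2 CPM and 30.0 and 27.3 CPM in Vc. Its Ver libraries were the lower ones throughout, and its difference was 1.21 ± 0.191 (adjusted p = 2.62e-06).

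More genes lowered by DHT rose further in Ver. DSEL, an enzyme of dermatan sulphate synthesis, had 97.8 and 86.7 CPM with both compounds and 16.4 and 19.9 CPM with DHT in Ver, against 82.7 and 78.6 CPM and 26.7 and 29.6 CPM in Vc, a difference of 0.82 ± 0.124 (adjusted p = 1.80e-06). NPY, which encodes neuropeptide Y, had 131 and 127 CPM with both compounds and 39.7 and 37.0 CPM with DHT in Ver, against 249.7 and 246 CPM and 104 and 107 CPM in Vc, a difference of 0.52 ± 0.0938 (adjusted p = 1.15e-04). CLSTN2, a calsyntenin of synaptic membranes named after its values were seen, had 115 and 96.3 CPM with both compounds and 49.1 and 45.7 CPM with DHT in Ver, against 28.7 and 31.1 CPM and 21.8 and 20.3 CPM in Vc. Its difference was 0.66 ± 0.127 (adjusted p = 3.73e-04), and 10.0% of its DHT-induced fall was left in Ver against 83.9% in Vc.

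In 4 genes of the set called under every left-out library and with the GC offset, enzalutamide lowered the level in Ver and raised it in Vc. LAMA3, a laminin chain of the basement membrane, had 152 and 139 CPM with both compounds and 174 and 165 CPM with DHT in Ver, against 222 and 206 CPM and 169 and 155 CPM in Vc. The DHT levels overlapped, and the block was -0.22 in Ver (adjusted p = 0.00157) and 0.40 in Vc (adjusted p = 2.17e-09), a difference of -0.62 ± 0.0812 (adjusted p = 3.07e-08). MCTP2, a calcium-binding membrane protein gene, had 78.0 and 89.6 CPM with both compounds and 94.0 and 106 CPM with DHT in Ver, against 151 and 158 CPM and 124 and 114 CPM in Vc, a difference of -0.64 ± 0.0996 (adjusted p = 3.08e-06). The others were NMNAT2 and ORC5, the second of them named after its values were seen. ABCC3, an efflux transporter gene, ran the other way, with 48.2 and 52.2 CPM with both compounds and 35.1 and 32.0 CPM with DHT in Ver, against 52.7 and 56.1 CPM and 63.2 and 62.4 CPM in Vc. Its difference was 0.79 ± 0.120 (adjusted p = 2.07e-06).

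Some genes moved with enzalutamide in 1 line without a call in the other. CYP1A1, a xenobiotic oxidase gene, had 5.13 and 6.95 CPM with both compounds and 26.5 and 24.8 CPM with DHT in Ver, against 13.0 and 13.1 CPM and 15.03 and 18.0 CPM in Vc. With DHT Ver was above Vc and with both compounds below it. The block was -2.09 in Ver and -0.33 in Vc (adjusted p = 0.115 in Vc), a difference of -1.75 ± 0.235 (adjusted p = 3.07e-08). AKAP12, a kinase-anchoring scaffold gene, had 17.0 and 16.4 CPM with both compounds and 38.3 and 39.3 CPM with DHT in Ver, against 15.7 and 17.5 CPM and 19.1 and 18.5 CPM in Vc. Its lines overlapped with both compounds and stood apart with DHT, and the difference was -1.03 ± 0.194 (adjusted p = 2.29e-04). RELN, which encodes the matrix protein reelin and was named after its values were seen, had 115 and 138 CPM with both compounds and 111 and 117 CPM with DHT in Ver, against 26.9 and 28.1 CPM and 13.5 and 16.2 CPM in Vc. Its block was 0.15 in Ver (adjusted p = 0.152) and 0.90 in Vc, a difference of -0.75 ± 0.136 (adjusted p = 9.88e-05). DESeq2 gave no adjusted p for CYP1A1, AKAP12, NMNAT2 or STEAP4.

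A difference in drug block is the difference in response to both compounds minus the difference in response to DHT, and these 3 comparisons share libraries. The response to both compounds against control differed between the lines for 402 genes (1.78%; 163 higher, 0.723%, and 239 lower, 1.06%), and the DHT response for 523 (2.32%; 201 higher, 0.891%, and 322 lower, 1.43%). For FKBP5 the DHT response differed by -0.16 (adjusted p = 0.605) and the response to both compounds by -1.03 (adjusted p = 5.41e-07). TPD52, UAP1 and LIFR were alike in this, with DHT-response differences of 0.00, -0.01 and 0.01 beside both-compound differences of -0.47, -0.47 and -0.50. The values were the other way round for TRIB1, with -0.55 for DHT and 0.12 for both compounds (adjusted p = 0.589), for LAMA3, with 0.70 and 0.08 (adjusted p = 0.780), and for ABCC3, with -0.78 and 0.01 (adjusted p = 0.994). ERG and ZBTB16 lay between, with 0.29 and 0.30 for DHT and -0.13 and -0.26 for both compounds.

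In the other gene lists between 0 and 5 members were called, beside 1.29% of all tested genes in either direction. The list of polyamine and prostate secretory genes had the highest share called, 2 higher and 3 lower of 19 (26.3%), with a median of 0.05 that was -0.02 with the GC offset and without library 2 of Ver with both compounds. Its higher members were NPY and FOLH1, and its lower members ACPP and the polyamine enzymes AMD1 and SMS. AMD1 had 632 and 625 CPM with both compounds and 695 and 714 CPM with DHT in Ver, against 769 and 782 CPM and 721 and 705 CPM in Vc, a difference of -0.28 ± 0.0674 (adjusted p = 0.00797). It was lost with the GC offset (0.350) and without library 2 of Ver with DHT, library 2 of Vc with both compounds or library 2 of Vc with DHT (0.0574 to 0.0816). SMS had 289 and 308 CPM with both compounds and 401 and 399 CPM with DHT in Ver, against 398 and 386 CPM and 425 and 425 CPM in Vc, a difference of -0.31 ± 0.0740 (adjusted p = 0.0104), lost without library 1 of Ver with both compounds, library 1 of Vc with both compounds or either library of Vc with DHT (0.0637 to 0.183). Drug efflux and xenobiotic genes had 1 higher, ABCC3, and 2 lower, CYP1A1 and ABCC4, of 18 (16.7%), with a median of -0.05, which was 0.03 without library 2 of Ver with DHT.

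Glucocorticoid receptor targets had 0 higher and 2 lower of 20, with a median of -0.17, and the called members, ZBTB16 and FKBP5, are also in the androgen-induced list. The receptor gene NR3C1 itself differed by -0.06 (adjusted p = 0.971). Chaperones and unfolded protein response genes of the endoplasmic reticulum, which fold secreted proteins, had 0 higher and 2 lower of 36. Their median was -0.11, although the block lowered 35 of them in Ver and 36 in Vc, beside 13.2% and 11.0% of all tested genes. Both calls, SPCS3 and SEL1L, were lost with the GC offset (0.412 and 0.468), where the median was -0.05, and with DESeq2 (0.0723 and 0.0856). They held only without library 2 of Ver with both compounds or library 1 of Ver with DHT, with adjusted p of 0.0743 to 0.336 for SPCS3 and 0.0917 to 0.619 for SEL1L without the others. ATF4 targets had no call in 24, with a median of -0.07, and 2 calls without library 2 of Ver with both compounds.

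Fatty acid synthesis genes had 2 higher and 2 lower of 22 (18.2%), with a median of -0.03. The lower members were the elongase ELOVL5 and the dehydratase HACD2. ELOVL5 had 139.8 and 133 CPM with both compounds in Ver and 179.5 and 166 CPM in Vc, and 294 and 307 CPM with DHT in Ver against 274 and 281 CPM in Vc, so that the order of the lines turned between treatments. Its difference was -0.46 ± 0.0847 (adjusted p = 1.86e-04). HACD2 differed by -0.39 ± 0.0733 (adjusted p = 2.28e-04). The desaturase SCD (0.26, adjusted p = 0.0347) and the lipid regulator SREBF1 (0.30, adjusted p = 0.0484) were higher, and both calls were lost with no filter on low counts (0.0630 and 0.105). Both were also lost without library 1 of Ver with both compounds, library 2 of Ver with DHT, library 1 of Vc with both compounds or library 1 of Vc with DHT, SCD also without library 2 of Vc with both compounds and SREBF1 also without library 2 of Vc with DHT. The adjusted p was then 0.0697 to 0.421 for SCD and 0.113 to 0.375 for SREBF1. SREBF1 was also lost with DESeq2 (0.0538) and with the GC offset (0.677). Cholesterol synthesis genes had 1 higher of 27, DHCR7, lost with the GC offset (0.164) and without library 1 of Ver with both compounds (0.0737), library 2 of Vc with DHT (0.116) or library 1 of Vc with both compounds (0.203).

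DNA replication genes had 2 higher and 0 lower of 33, with a median of 0.16, and mitosis genes 0 of 30, with a median of 0.19. When single libraries were left out the median ran from 0.08 to 0.25 for replication and from 0.07 to 0.37 for mitosis genes. MCM2, a subunit of the replicative helicase, had 25.02 and 23.8 CPM with both compounds and 7.22 and 8.30 CPM with DHT in Ver, against 19.2 and 25.5 CPM and 11.9 and 13.8 CPM in Vc. The levels with both compounds overlapped and those with DHT did not. Its difference was 0.85 ± 0.196 (adjusted p = 0.00534), lost without library 2 of Vc with DHT (0.0693) or library 1 of Vc with both compounds (0.143). The other call, the cell cycle factor E2F1 (0.83, adjusted p = 0.0399), was lost with the GC offset (0.186), in the fit of the contrast groups (0.0800) and without 6 of the 8 libraries. These 6 were library 1 of Ver with both compounds (0.191), library 2 of Ver with DHT (0.432), libraries 1 and 2 of Vc with both compounds (0.117 and 0.0982) and libraries 1 and 2 of Vc with DHT (0.0919 and 0.125). For 16 replication genes lowered by DHT, the median share left was 69.1% in Ver and 80.6% in Vc, and it was smaller in Ver for 15.

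The 15 mitochondrially encoded genes had no call and a positive difference in all 15, with a median of 0.20. With the GC offset 3 were called higher, with a median of 0.25. Without library 2 of Vc with DHT 4 were called higher, and the median ran from 0.13 to 0.27 when single libraries were left out. Of 11 tested UGT2B and glucuronidation genes none was called, with a median of 0.44 that was -0.05 without library 1 of Vc with DHT and 0.22 to 0.54 without each of the others, and reads shared between these near-identical genes cannot be assigned with certainty. Neuroendocrine genes had 0 calls in 20 and a median of 0.06, which was -0.06 without library 1 of Ver with both compounds and -0.02 without library 2 of Vc with DHT. The epithelial and luminal list had 2 higher, KRT19 and CLDN4, and 1 lower, ESRP1, of 22, with a median of 0.11. All 3 calls were lost with the GC offset (0.465, 0.116 and 0.162). KRT19 was lost without library 2 of Ver with both compounds, library 2 of Ver with DHT, either library of Vc with both compounds or library 2 of Vc with DHT (0.0530 to 0.213), and CLDN4 without library 1 of Ver with both compounds, library 1 of Vc with both compounds or library 2 of Vc with DHT (0.118 to 0.207). ESRP1 held only without library 2 of Ver with both compounds, with 0.0754 to 0.384 without the others.

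**Figure D5:**
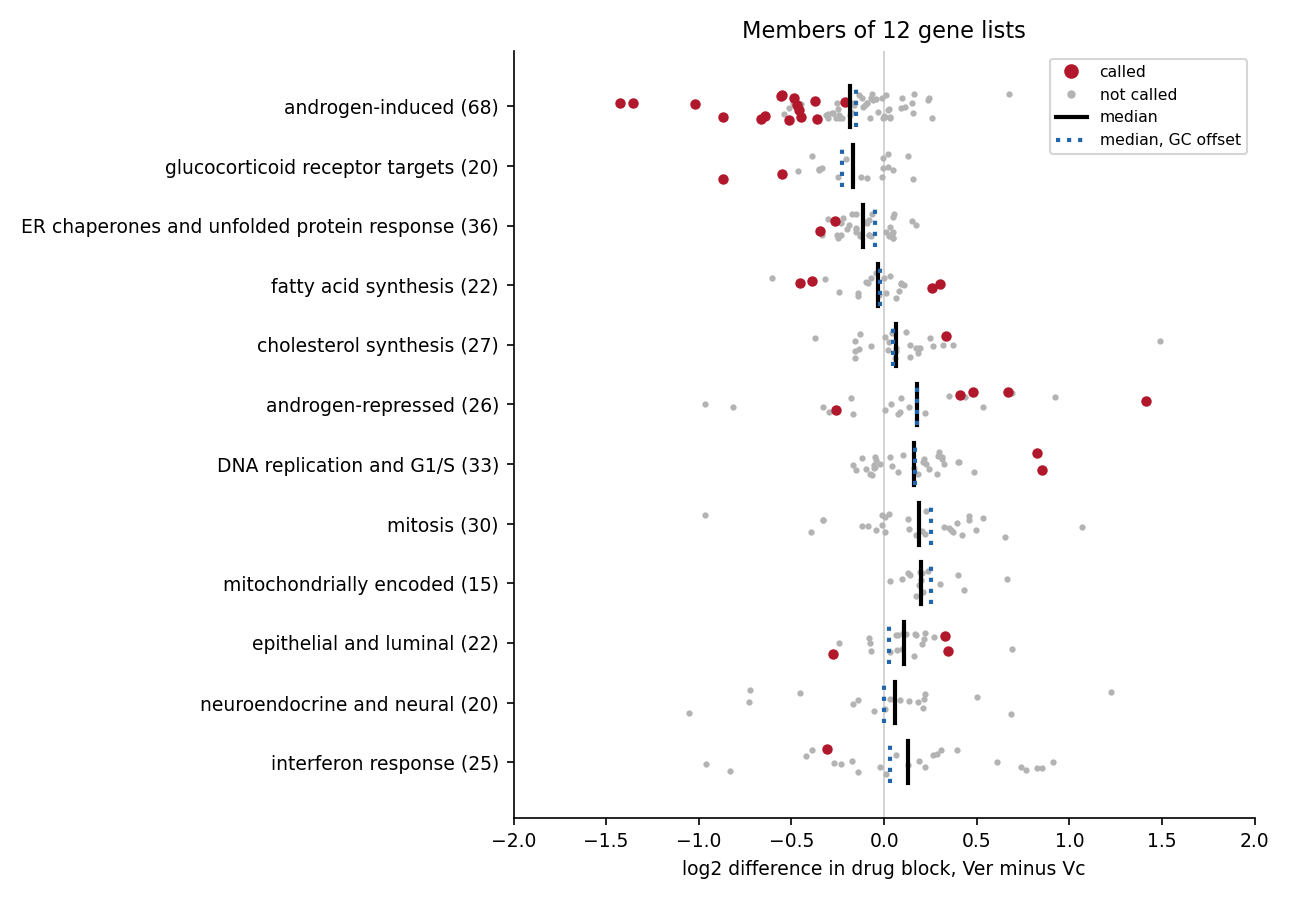
Log2 difference in drug block, Ver minus Vc, for the tested members of 12 gene lists, 1 point per gene. Black marks are list medians, blue dotted marks the medians with the GC offset, and 7 members lie outside the axis of 2 on either side. The androgen-induced list has its median at -0.18, with 52 of 68 members below 0.

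Enzalutamide alone in starved cells was compared with control in other libraries, none of which enters the difference in drug block. It changed 255 genes in Ver (1.13%; 149 lower, 0.661%, and 106 higher, 0.47%) and 121 in Vc (0.537%; 86 lower, 0.381%, and 35 higher, 0.155%). Of the 40 genes it lowered in both lines, 10 (25%) were called lower in the difference in drug block and 2 (5%) higher. Among all tested genes 0.652% were called lower and 0.638% higher. These tests share 1 estimate of the spread of each gene, so a gene with a small estimate is called more readily in all of them. The shares called in this paragraph are therefore a description. The 40 genes had a median of -0.17 and negative values in 34. The 10 were BMPR1B, ELL2, ERG, FAM129A, MBOAT2, MCCC2, TMPRSS2, ZBTB10, ZBTB16 and ZNF614, and the 2 were DSEL and NPY. Of the 14 genes it raised in both lines, 5 (35.7%) were called higher, namely CLSTN2, FAM84A, IHH, SELENBP1 and TRIB1. A further 2 (14.3%), ACPP and HPGD, were called lower. The 14 genes had a median of 0.26 and positive values in 11. Those of these genes that lie outside the naming rule were named after their values were seen. The 10 lower calls among the 40 became 6 without library 1 of Ver with both compounds and 7 to 12 without each of the others. The 5 higher calls among the 14 became 3 without library 1 of Ver with both compounds, library 2 of Ver with DHT, library 1 of Vc with both compounds or library 2 of Vc with DHT, and 4 to 6 without each of the others. The 2 lower calls became 1 without 5 of the libraries, namely both of Ver with both compounds, library 2 of Ver with DHT, library 1 of Vc with both compounds and library 2 of Vc with DHT. ERG had 150.1 and 153 CPM with enzalutamide alone in Ver, below its control libraries at 240.4 and 233 CPM, and 237 and 235 CPM in Vc, below its controls at 318 and 328 CPM.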

How the data were processed

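Poly(A) RNA of 16 libraries was sequenced, 8 groups of 2. The authors deposited a file of read counts per gene for each library, and these counts were used. Tools named in the submitters' processing notes are HISAT2, SAMtools, HTSeq 0.11.1, Trimmomatic 0.36-5 and FastQC 0.11.7, with GRCh38 as the genome. HTSeq ran in union mode without strand, as the names of the deposited files show, and reads from overlapping, antisense or near-identical genes are therefore uncertain. Gene names and positions came from GENCODE release 29. Reads in no gene made up 45.5 ± 0.670% of counted reads with both compounds and 45.4 ± 0.213% with DHT in Ver, against 48.3 ± 0.445% and 47.0 ± 0.130% in Vc (mean ± SD, n = 2), and their part in the results was not tested.

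The test was that of edgeR 4.0.16 (R 4.3.3): low counts were filtered with filterByExpr, libraries scaled by TMM, and a robust quasi-likelihood model of 8 groups fitted to the 16 libraries together, leaving 8 residual degrees of freedom at a biological coefficient of variation of 6.01%. The two-sided F test gave the p-values, adjusted by Benjamini-Hochberg over the 22553 genes and called under 0.05; every adjusted p is from this test unless DESeq2 (1.42.0) is named. The SE of a log2 difference is its Wald error from the quasi-likelihood or Poisson variance, whichever is larger. CPM used TMM library sizes. The GC offset is a loess curve (span 0.3) of each library's log2 deviation on the GC content of the longest transcript. The scripts were tested on simulated data. Libraries 1 and 2 of each group differed beyond sampling noise.

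The comparison and the gene lists were chosen with earlier results of these data known. Genes were named by a rule: a set of prostate genes given beforehand; among called genes with a mean of at least 5 CPM and 1 sign in all 16 combinations of libraries, the 15 largest differences and 10 smallest adjusted p-values in each direction; and of each list the 4 members with the smallest adjusted p and any member that a count of at most 5 calls for. The text names a part of these, and some genes the rule names are not reported here. Alternatives were DESeq2, other size factors, other filters, the contrast groups alone, a replicate covariate, the GC offset and leaving out each library.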

Additional observations from a re-analysis of the deposited data

Results flagged for a closer look

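11 genes were called with opposite directions in the lines when enzalutamide was added to DHT, and each also passed the test of the difference itself. Fell in Ver and rose in Vc: the difference in log2 block was -1.93 for NMNAT2, an enzyme of NAD synthesis in neurons, -0.64 for MCTP2, -0.62 for LAMA3, -0.56 for ORC5 and -0.53 for ORC4, both subunits of the replication origin complex, and -0.37 for NCOA3, a nuclear receptor coactivator. Rose in Ver and fell in Vc: it was 0.79 for ABCC3, 0.49 for HIST1H1C, a linker histone, 0.35 for PPDPF, 1.22 for SNORA49, a small nucleolar RNA, and 4.95 for STAU2-AS1.

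NMNAT2 had 1.47 and 1.16 CPM with both compounds and 3.83 and 2.68 CPM with DHT in Ver, against 14.7 and 14.1 CPM and 9.44 and 9.25 CPM in Vc. ORC5 had 59.6 and 56.2 CPM with both compounds and 69.2 and 69.9 CPM with DHT in Ver, against 69.3 and 69.2 CPM and 56.6 and 55.9 CPM in Vc. STAU2-AS1, an antisense gene counted without strand, had 1.57 and 1.05 CPM with both compounds and 0.357 and 0.0923 CPM with DHT in Ver, against 0 and 0.352 CPM and 1.07 and 0.915 CPM in Vc, so that its difference rests on few reads. With the GC offset the calls of ORC4 (adjusted p = 0.0846), NCOA3 (0.0934) and PPDPF (0.825) were lost. Single libraries also ended calls. ORC4 was lost without library 1 of Ver with both compounds or library 2 of Ver with DHT (0.0542 to 0.109), and PPDPF without library 2 of Ver with DHT, library 1 of Vc with both compounds or library 1 of Vc with DHT (0.0563 to 0.327). NCOA3 held only without library 2 of Ver with both compounds, library 1 of Ver with DHT or library 1 of Vc with DHT, with 0.0694 to 0.246 without the others. HIST1H1C was lost without library 2 of Vc with DHT (0.0878), SNORA49 without library 1 of Vc with DHT (0.118), and STAU2-AS1 without library 1 of Ver with both compounds, library 2 of Ver with DHT, library 1 of Vc with both compounds or library 1 of Vc with DHT (0.0561 to 0.151).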

How the results depend on the processing

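The count of 291 genes was 294 with DESeq2-type size factors (290 of them among the 291), 209 with DESeq2 (179) and 229 with no filter (223). It was 369 with a mean of at least 5 CPM (280), 288 with the contrast groups alone (251) and 166 with the GC offset (127). It ran from 93 to 357 without 1 library, and with the GC offset from 76, without library 1 of Ver with both compounds, to 232, without library 2 of the same group. DESeq2 called 344 genes in the DHT-response difference and 257 in that of both compounds. Without 1 library, the ranges were 300 to 529 for the DHT-response difference, 202 to 358 for that of both compounds, 4331 to 5103 and 3731 to 3873 for the block in Ver and in Vc, 8407 to 8636 and 8459 to 8687 for DHT in Ver and in Vc, and 112 to 174 and 47 to 62 for enzalutamide alone in Ver and in Vc. No result changed direction past its threshold under any alternative run. Single named genes with a call kept it in 435 planned refits with all libraries and lost it in 28. They were not counted in refits that filtered them out or gave them no adjusted p. In the refits with the GC offset, added later, they kept it in 102 and lost it in 62. These numbers leave out the refits without 1 library, which have 1 library left in a group. Named genes lost their call in a larger share of those than of the planned refits with all libraries.

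The replicate numbers did not pair the libraries: deviations of same-numbered libraries correlated between -0.0114 and 0.0469 over the 6 pairs of contrast groups. With a replicate block 327 genes were called, 290 of them among the 291, and 191 with the GC offset as well. With 2 libraries per group, a gene without a call is not shown to be alike in the lines.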
